A study of Mus musculus with 9 samples.

Results

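The cell cycle and DNA replication genes described here are 42 genes, all of which were found by gene name among the 54361 genes of the deposited table. They divide into 17 genes of G1/S and S phase and 25 genes of G2 and mitosis (G2/M), with Ccna2, which acts in both S and G2, Foxm1 and Stmn1 counted under G2/M. All 42 passed the filter on low values, a mean of at least 5 normalized counts over 9 libraries. RNA was sequenced from cells that the labels call eosinophils, sorted from the lungs of C57BL/6 mice. The Siglec-F high libraries (n = 3, titled iEOS) and the Siglec-F int libraries (n = 3, titled rEOS) came from mice given PyMT tumour cells, a mouse mammary carcinoma line, through the tail vein. The naive libraries (n = 3) came from mice given saline alone. Cells of 3 to 4 mice were pooled for a library, so that n is the number of pools, and no genotype other than the strain is given in the labels.

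A cell that divides first licenses its replication origins, loading the MCM helicase through Cdc6 and Cdt1, and then fires them under cyclin E, with E2F factors switching on the genes of nucleotide synthesis and of the replication fork. In G2 and mitosis, cyclin B with Cdk1, the Aurora and Polo kinases, kinesins and centromere proteins carry out chromosome segregation, and many of their genes are switched on by Foxm1, B-Myb and the MuvB complex. Mature eosinophils are granulocytes that leave the bone marrow after their last division, and they are short-lived in blood. Transcripts of these genes are used as markers of cycling cells of any type. In bulk RNA, fewer cycling cells and less RNA per cycling cell cannot be told apart.

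The libraries held from 2205949 reads (naive library 2) to 12495639 reads (Siglec-F int library 3). Markers of the labelled cell type were scarce. The 10 eosinophil markers on the list summed to 516 to 1154 normalized counts in Siglec-F high, 190 to 419 in Siglec-F int and 268 to 742 in naive libraries, with up to 5 of them at 0 in a library. Markers of some other cells moved with the groups. The 10 pigment cell markers summed to 209 to 1059, 369 to 701 and 64356 to 72718 normalized counts in the same order of groups, and 10 of 10 were lower in each tumour group than in naive. Fibroblast markers (10) summed to 33019 to 47840, 15829 to 34073 and 6453 to 8094, with 8 of 10 higher in Siglec-F high and 7 of 10 higher in Siglec-F int. Monocyte and macrophage markers (10) summed to 16532 to 20548, 14801 to 54849 (the highest in library 2) and 8065 to 11803, with 4 and 3 of 10 higher. In the lists of epithelial and mammary tumour, neutrophil, lymphocyte and endothelial markers, at most 1 gene each was called in either comparison with naive. Beside these counts, 14.7% of all genes tested were called higher and 16.6% lower in Siglec-F high than in naive. In Siglec-F int these shares were 12% and 10.3%. The part of any of these cells in the cell cycle results was not tested. Siglec-F high library 1 stood apart in its share of mitochondrial reads, at 31.1%, against 11.5% to 21.2% in the other 8, and the larger shifts on leaving it out are given beside the genes.

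Across the S-phase genes as a whole, transcripts were fewer in both tumour groups than in naive. The 17 genes summed to 584, 922 and 824 RPM (reads scaled to the depth of the library) in the Siglec-F high libraries, to 809.6, 810.2 and 906 in the Siglec-F int libraries and to 1692, 1468 and 1675 in the naive libraries. Each of the 6 tumour libraries lay below each naive library. The means were 777 ± 174 in Siglec-F high, 842 ± 55.5 in Siglec-F int and 1612 ± 125 in naive (SD, n = 3 each). The widest 95% Wilson interval for S-phase genes, in naive library 2, ran from 1418 to 1519. The 25 G2/M genes summed to 2025, 2373 and 2417 RPM in Siglec-F high, 2322, 1647 and 2386 in Siglec-F int and 2068, 1573 and 2311 in naive libraries, and the 3 ranges overlapped. This overlap depended on the mitochondrial reads in the total. Without them, the G2/M genes summed to 2938, 2755 and 3012 RPM in Siglec-F high, 2834, 1928 and 2836 in Siglec-F int and 2588, 1998 and 2611 in naive libraries, so that each Siglec-F high library lay above each naive library, while Siglec-F int and naive overlapped. The S-phase sums of all tumour libraries stayed below those of naive on that scale, at 848, 1070.4 and 1026 in Siglec-F high, 988, 949 and 1077 in Siglec-F int and 2117, 1864 and 1892 in naive. The ratio of G2/M reads to S-phase reads was 3.47, 2.57 and 2.94 in the Siglec-F high libraries and 2.87, 2.03 and 2.63 in the Siglec-F int libraries, against 1.22, 1.07 and 1.38 in the naive libraries, with no overlap between tumour and naive libraries.

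**Figure D1:**
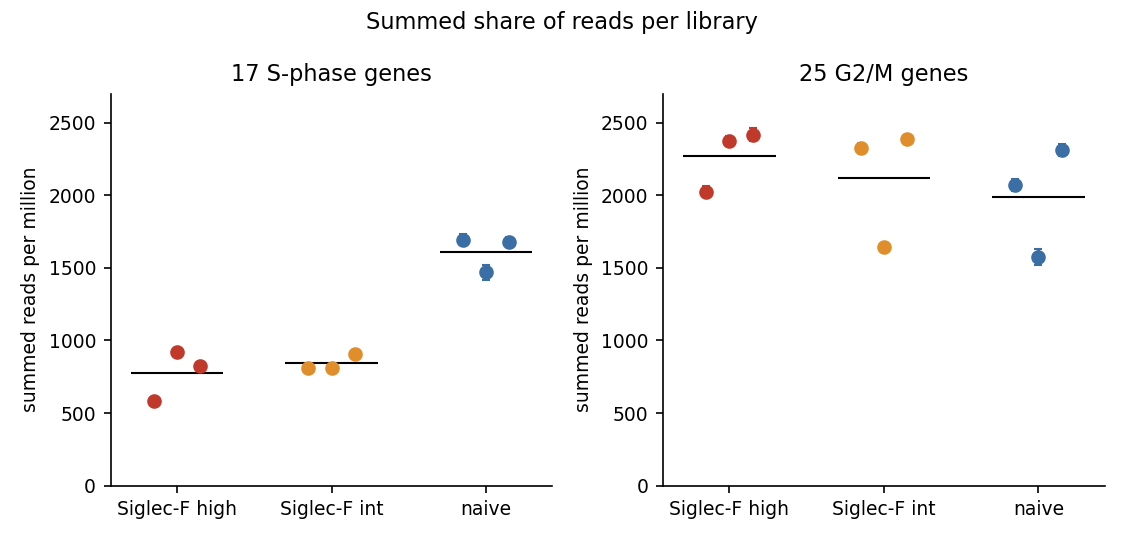
Summed RPM of the 17 S-phase genes (left) and the 25 G2/M genes (right), with 1 point per library, a line at the mean of each group and 95% Wilson intervals as whiskers. The S-phase sums of the Siglec-F high and Siglec-F int libraries lie between 584 and 922, below the naive libraries at 1468 to 1692, while the G2/M sums overlap with mitochondrial reads kept in the total, as plotted.

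In the test across 13642 genes (limma on log2(value + 1), p-values adjusted by the Benjamini-Hochberg method), 10 of the 17 S-phase genes were called between Siglec-F high and naive, of which 1 was higher and 9 were lower, with a median log2 fold change of -1.42. Over all genes, 14.7% were higher and 16.6% lower (31.3% in all), with a median of -0.11. Between Siglec-F int and naive, 6 of the 17 were lower and none higher, with a median of -1.21, where 12% of all genes were higher and 10.3% lower (22.3% in all) and the median was -0.02. The same naive libraries serve in both comparisons. Without any overlap between the 3 libraries of each group, 1 S-phase gene was higher and 11 were lower in Siglec-F high than in naive, against 20.2% and 26.3% of all genes. In Siglec-F int, 2 were higher and 13 lower than in naive, against 23.3% and 27.6% of all genes. The number called in Siglec-F high was 5 without naive library 2, where 3019 of 13548 genes were called in all. The number called in Siglec-F int was 3 without naive library 1 or 2 or Siglec-F int library 1 or 3, and 11 without Siglec-F high library 1, which enters the shared estimate of the spread. Of all genes, these fits called 1926 of 13651, 2249 of 13548, 1498 of 13664, 1401 of 13695 and 5301 of 13432, in that order. The counts of members thus moved with the number of genes called in all.

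The 25 G2/M genes moved both ways in the same test. In Siglec-F high, 6 were higher and 4 lower than in naive (median 0.38), and in Siglec-F int 3 were higher and 3 lower (median -0.10). Beside these 10 of 25 and 6 of 25 stand 31.3% (14.7% higher, 16.6% lower) and 22.3% (12% higher, 10.3% lower) of all genes. In Siglec-F high, 9 G2/M genes were higher and 7 lower than in naive without overlap between the libraries, against 20.2% and 26.3% of all genes. In Siglec-F int 7 were higher and 8 lower, against 23.3% and 27.6% of all genes. The number called in Siglec-F high was 6 without naive library 1 or 2 and 5 without naive library 3. These fits called 2758 of 13651, 3019 of 13548 and 2938 of 13651 genes in all. In Siglec-F int it was 1 without Siglec-F int library 1 or 3, 2 without naive library 1 or 2, 3 without naive library 3 and 11 without Siglec-F high library 1. In that order, these fits called 1498 of 13664, 1401 of 13695, 1926 of 13651, 2249 of 13548, 2038 of 13651 and 5301 of 13432 genes in all. With the libraries scaled by TMM or to equal totals, which moved the median of all genes in Siglec-F int to 0.19 or 0.23, the median of the G2/M genes there was 0.13 or 0.17, so that its sign depended on the scaling. Both scalings, and the count test edgeR, called 3 G2/M genes higher and 0 lower in Siglec-F int. The lower calls of Aurka, Birc5 and Cenpa were lost in each. The count test DESeq2 called 3 higher and 6 lower there.

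No member differed between Siglec-F high and Siglec-F int, where 0% of all 13642 genes were called (591 had an unadjusted p under 0.05, edgeR called 0 genes and DESeq2 6). At an unadjusted p under 0.05 there was 1 G2/M gene and there were 0 S-phase genes. Without overlap between the libraries, 1 S-phase and 3 G2/M genes were higher and none lower, against 5.52% and 5.75% of all genes. Median log2 fold changes of Siglec-F high over Siglec-F int were 0.02 for S-phase and 0.22 for G2/M genes, where all genes had -0.08. The G2/M gene was Cdk1, the catalytic partner of cyclin B, with 3003, 1951 and 1790.2 normalized counts in the Siglec-F high libraries, 1379, 1061 and 1623 in the Siglec-F int libraries and 1787, 1644 and 1504 in the naive libraries. Its Siglec-F high libraries all lay above the Siglec-F int ones, and the log2 fold change between them was 0.71 ± 0.29 (adjusted p = 0.797).

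**Figure D2:**
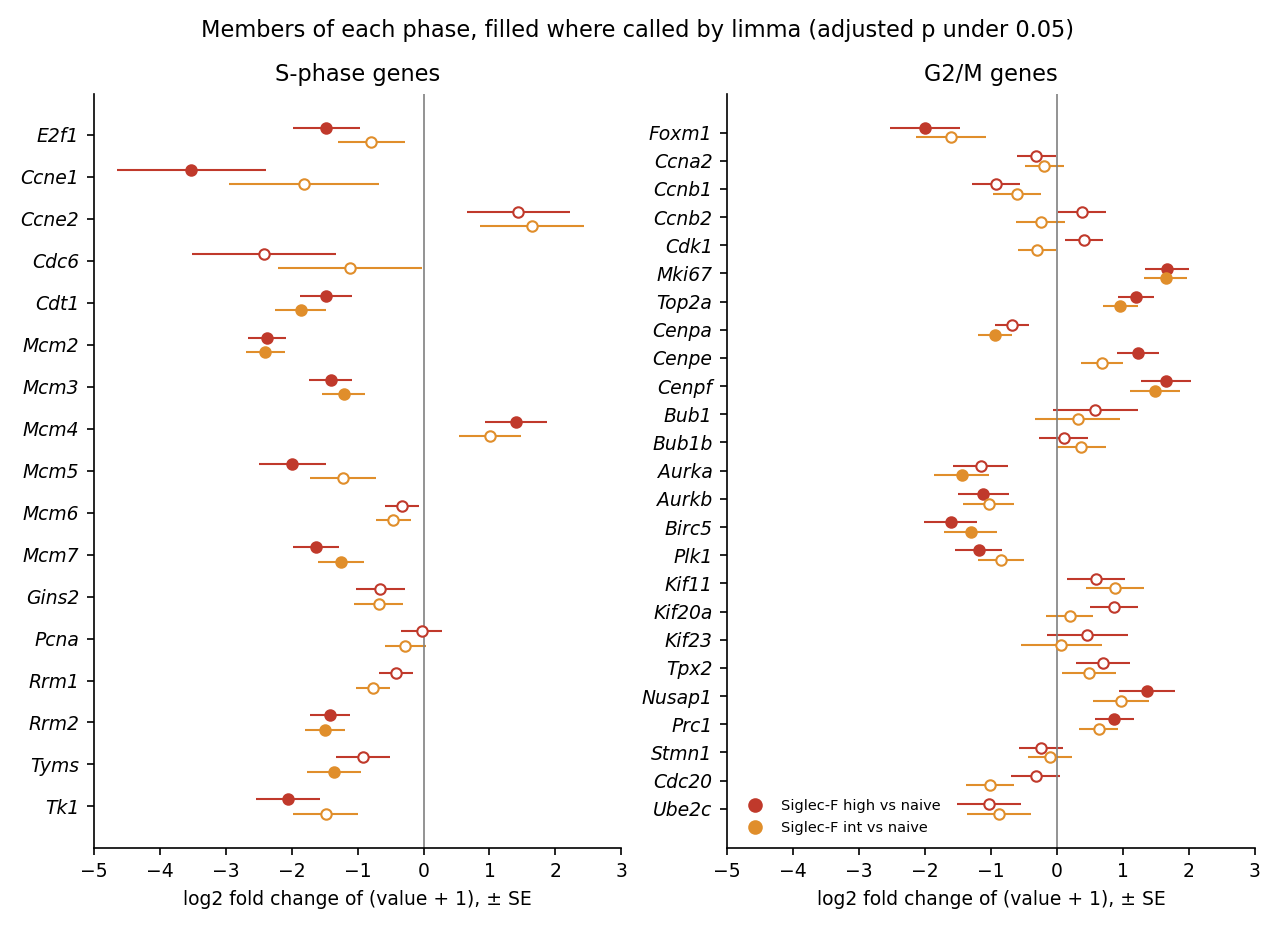
Log2 fold change of (value + 1) against naive for each S-phase gene (left) and each G2/M gene (right), with the standard error, in Siglec-F high (upper point of each pair) and Siglec-F int (lower point). Filled points passed the adjusted p threshold of 0.05, and most S-phase points lie left of 0 while G2/M points lie on both sides.

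Promoter windows are printed for the 3 genes of each phase with the smallest adjusted p, since genes of the phases are known to be switched on through different promoter elements. Whether these elements bear on the differences between the groups was not tested. Each window is the 250 bases upstream of the start site, 5′ to 3′ on the gene's strand, from RefSeq (GRCm38.p6), for which 33 of the 42 members had a window. Capitals mark matches on either strand to CCAAT (the CCAAT box), to TTTGAA (the core of the element bound by MuvB complexes) and to the E2F-type sequences TTTGGCGC, TTTCCCGC and GGCGCGAA, of which the first and the last overlap each other. The S-phase windows are those of Mcm2 (chr6:88898781-88899030, minus strand), Rrm2 (chr12:24708004-24708253, plus strand) and Mcm7 (chr5:138171884-138172133, minus strand).
Mcm2: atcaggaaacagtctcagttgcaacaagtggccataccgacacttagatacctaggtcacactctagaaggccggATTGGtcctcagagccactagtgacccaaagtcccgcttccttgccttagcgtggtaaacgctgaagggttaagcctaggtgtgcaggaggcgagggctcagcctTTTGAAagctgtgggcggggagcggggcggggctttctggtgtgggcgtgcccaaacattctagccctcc
Rrm2: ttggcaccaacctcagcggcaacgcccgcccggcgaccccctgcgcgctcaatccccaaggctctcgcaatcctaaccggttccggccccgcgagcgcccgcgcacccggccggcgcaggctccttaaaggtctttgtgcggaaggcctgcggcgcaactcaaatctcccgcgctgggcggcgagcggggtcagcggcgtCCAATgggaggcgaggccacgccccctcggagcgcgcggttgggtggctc
Mcm7: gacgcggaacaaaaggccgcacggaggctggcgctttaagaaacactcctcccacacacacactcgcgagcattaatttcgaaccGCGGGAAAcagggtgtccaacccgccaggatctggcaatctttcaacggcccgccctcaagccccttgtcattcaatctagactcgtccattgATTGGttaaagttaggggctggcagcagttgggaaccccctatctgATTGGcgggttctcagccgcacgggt
The G2/M windows are those of Mki67 (chr7:135716380-135716629, minus strand), Top2a (chr11:99024190-99024439, minus strand) and Cenpf (chr1:189688087-189688336, minus strand).
Mki67: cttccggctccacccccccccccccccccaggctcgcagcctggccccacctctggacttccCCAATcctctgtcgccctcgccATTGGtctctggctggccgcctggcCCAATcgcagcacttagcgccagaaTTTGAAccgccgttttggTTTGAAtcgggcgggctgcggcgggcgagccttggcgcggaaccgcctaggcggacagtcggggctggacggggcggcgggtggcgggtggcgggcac
Top2a: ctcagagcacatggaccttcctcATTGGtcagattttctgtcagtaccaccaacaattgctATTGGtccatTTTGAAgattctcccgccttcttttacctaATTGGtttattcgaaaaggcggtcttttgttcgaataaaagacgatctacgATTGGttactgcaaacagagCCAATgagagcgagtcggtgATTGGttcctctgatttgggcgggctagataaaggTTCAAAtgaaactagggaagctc
Cenpf: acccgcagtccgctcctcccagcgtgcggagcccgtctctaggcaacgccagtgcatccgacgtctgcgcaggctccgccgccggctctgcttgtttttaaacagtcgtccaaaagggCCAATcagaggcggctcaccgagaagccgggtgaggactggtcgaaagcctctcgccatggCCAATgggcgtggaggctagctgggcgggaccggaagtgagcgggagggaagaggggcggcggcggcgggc

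CCAAT occurred in 17 of 19 G2/M windows and 8 of 14 S-phase windows, against 33.9% of 32851 windows of the same length. TTTGAA occurred in 7 of 19 G2/M windows and 1 of 14 S-phase windows (Mcm2), against 15.99%. An E2F-type match occurred in 0 of 19 G2/M windows and 4 of 14 S-phase windows (Cdc6, Mcm5, Mcm6 and Mcm7), against 1.70%. Of the printed G2/M windows, Top2a held 8 matches in all, Mki67 5 and Cenpf 2, and of the S-phase windows Mcm7 held 3, Mcm2 2 and Rrm2 1. A match describes these letters only and shows no binding.

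The MCM helicase, a ring of 6 subunits (Mcm2 to Mcm7) that unwinds DNA at the fork, was lower in 4 of its subunits. Mcm2 (ENSMUSG00000002870, chr6:88883474-88898780 in GRCm38) had 168, 268 and 258 normalized counts in the Siglec-F high libraries, 218, 225 and 223 in the Siglec-F int libraries and 1053, 1435 and 1067 in the naive libraries. Every tumour library was far below every naive library, and Mcm2 had the smallest adjusted p of the list in both comparisons. The log2 fold change was -2.37 ± 0.29 (adjusted p = 0.000535) in Siglec-F high and -2.40 ± 0.29 (adjusted p = 0.000728) in Siglec-F int. Mcm7 (chr5:138164583-138172422) had 295, 713 and 467 normalized counts in the Siglec-F high libraries, 520.2, 682 and 617 in the Siglec-F int libraries and 1734, 1542 and 1095 in the naive libraries, again without overlap with naive. It changed by -1.63 ± 0.35 (adjusted p = 0.00741) in Siglec-F high and -1.25 ± 0.35 (adjusted p = 0.0275) in Siglec-F int. Reads of Mcm7 and of Cops6 and Ap4m1, which overlap its ends on the other strand by 64 and 421 bases, cannot be told apart, as no use of strand in counting is stated. Mcm3 (chr1:20802968-20820312) had 123, 177 and 110.0 normalized counts in the Siglec-F high libraries, 149, 205 and 119 in the Siglec-F int libraries and 342, 375 and 353 in the naive libraries, and all tumour libraries were below all naive ones. It changed by -1.41 ± 0.33 (adjusted p = 0.0108) in Siglec-F high and -1.21 ± 0.33 (adjusted p = 0.0249) in Siglec-F int. In Siglec-F int, the call of Mcm7 was lost without naive library 1 or 2 or any Siglec-F int library (-1.11 to -1.33), and that of Mcm3 without any naive library or Siglec-F int library 1 or 3 (-1.02 to -1.24).

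Mcm5 (chr8:75109569-75128439) had 38.4, 141 and 141 normalized counts in the Siglec-F high libraries, 149, 204 and 125 in the Siglec-F int libraries and 329, 505 and 295 in the naive libraries. Siglec-F high library 1 was the lowest, and the groups did not overlap with naive. Mcm5 fell in Siglec-F high, with -1.99 ± 0.50 (adjusted p = 0.0151), or -1.37 without library 1, and was at -1.22 ± 0.50 (adjusted p = 0.105) in Siglec-F int. The call in Siglec-F high was lost without naive library 2 (-1.75, adjusted p = 0.0543). Mcm6 did not pass the test, at 547, 491 and 496 normalized counts in the Siglec-F high libraries, 406, 517 and 478 in the Siglec-F int libraries and 653, 524 and 762 in the naive libraries, where Siglec-F high libraries overlapped naive library 2. Mcm4 (chr16:15623897-15637400) went the other way, with 418, 122 and 123 normalized counts in the Siglec-F high libraries, 136, 153 and 132 in the Siglec-F int libraries and 71.1, 78.2 and 59.3 in the naive libraries. All 6 tumour libraries were above the naive ones, and library 1 of Siglec-F high was the highest by far. Its log2 fold change of 1.40 ± 0.47 (adjusted p = 0.0445) in Siglec-F high was 0.81 without that library (adjusted p = 0.0696), and in Siglec-F int it was 1.01 ± 0.47 (adjusted p = 0.147). The call of Mcm4 was lost without any 1 of 7 libraries, all but Siglec-F high libraries 2 and 3. Among the 6 subunits of the helicase, 4 fell and 1 rose in Siglec-F high, and 3 fell in Siglec-F int.

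**Figure D3:**
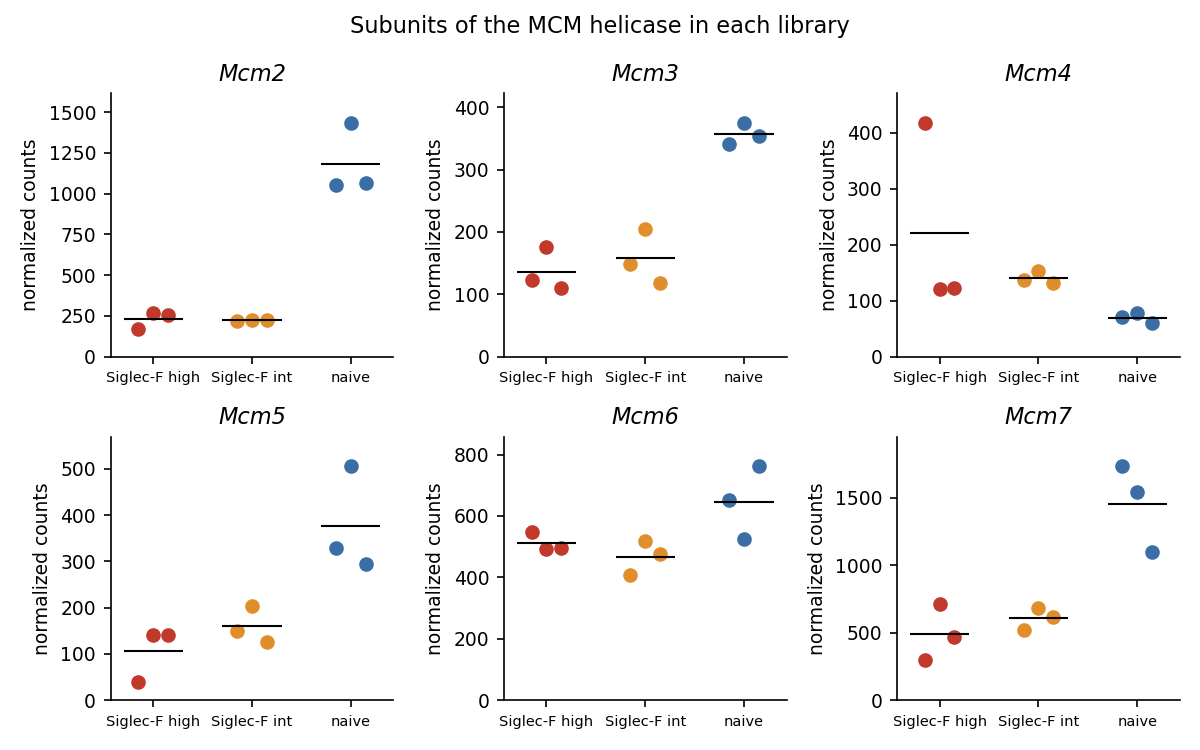
Normalized counts of the 6 subunits of the MCM helicase, with 1 point per library and a line at the mean of each group. Mcm2, Mcm3, Mcm5 and Mcm7 lie lower in the Siglec-F high and Siglec-F int libraries than in naive, Mcm4 lies higher, and the Mcm6 libraries of Siglec-F high and naive overlap.

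Of the factors that load and assemble the helicase, Cdt1 fell in both tumour groups. Cdt1 (chr8:122568015-122573554), which loads the helicase together with Cdc6, had 122, 159.9 and 134 normalized counts in the Siglec-F high libraries, 66.0, 159 and 111 in the Siglec-F int libraries and 329, 537 and 323 in the naive libraries. No tumour library reached the lowest naive library. Its log2 fold change was -1.48 ± 0.39 (adjusted p = 0.0174) in Siglec-F high and -1.86 ± 0.39 (adjusted p = 0.00780) in Siglec-F int, and the call in Siglec-F high was lost without naive library 2 (-1.24, adjusted p = 0.0586). Cdc6 had 0, 24.5 and 28.1 normalized counts in the Siglec-F high libraries, 18.8, 22.3 and 22.8 in the Siglec-F int libraries and 44.7, 39.1 and 60.1 in the naive libraries. It did not pass the test (adjusted p = 0.111 and 0.488), although no tumour library reached a naive one. Gins2, a subunit of the GINS complex that joins the helicase at the fork, had 73.4 ± 19.0 in Siglec-F high, 71.5 ± 12.5 in Siglec-F int and 115 ± 18.5 in naive (SD, n = 3 each) and did not pass. Its gene overlaps Gse1 on the other strand.

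Of 4 enzymes of deoxynucleotide supply, Rrm2 and Tk1 fell in Siglec-F high and Rrm2 and Tyms in Siglec-F int. Rrm2 (chr12:24708241-24714146), the S-phase subunit of ribonucleotide reductase, had 340.0, 376 and 474 normalized counts in the Siglec-F high libraries, 404, 316 and 403 in the Siglec-F int libraries and 1224, 729 and 1301 in the naive libraries. The lowest naive library held more than the highest tumour library, and the log2 fold change was -1.42 ± 0.30 (adjusted p = 0.00765) in Siglec-F high and -1.50 ± 0.30 (adjusted p = 0.00706) in Siglec-F int. Its partner Rrm1, the large subunit, had 288, 291 and 249.90 normalized counts in the Siglec-F high libraries, 215, 204 and 226 in the Siglec-F int libraries and 360.1, 352 and 393 in the naive libraries and did not pass (adjusted p = 0.234 and 0.0548), without overlap between tumour and naive libraries. Tk1 (chr11:117815526-117826092), the thymidine kinase of dividing cells, had 80.1, 356 and 324 normalized counts in the Siglec-F high libraries, 294, 355 and 294 in the Siglec-F int libraries and 907, 933 and 792 in the naive libraries. Siglec-F high library 1 was again the lowest. It fell in Siglec-F high, with -2.05 ± 0.49 (adjusted p = 0.0119), or -1.36 without library 1, and was at -1.48 ± 0.49 (adjusted p = 0.0521) in Siglec-F int. Tyms (chr5:30058202-30073617), which makes thymidylate, had 139, 96.0 and 64.0 normalized counts in the Siglec-F high libraries, 51.0, 84.7 and 78.4 in the Siglec-F int libraries and 157, 239.7 and 156 in the naive libraries. It fell in Siglec-F int, with -1.36 ± 0.41 (adjusted p = 0.0369), and was at -0.92 ± 0.41 (adjusted p = 0.105) in Siglec-F high, and the call was lost without any 1 naive or Siglec-F int library (-1.14 to -1.50). Whether Tyms or Tk1 differed between the tumour groups was tested directly and did not pass (adjusted p = 0.804 and 0.798). Pcna, the clamp that holds polymerases on DNA, overlapped between groups, at 405, 249.97 and 389.8 normalized counts in the Siglec-F high libraries, 283, 311 and 262 in the Siglec-F int libraries and 445, 274 and 340.0 in the naive libraries (adjusted p = 0.962 and 0.547).

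Of the factors that start S phase, E2f1 and Ccne1 fell in Siglec-F high. E2f1 (chr2:154559407-154569892), a transcription factor of this programme, had 71.3, 314 and 214 normalized counts in the Siglec-F high libraries, 209.9, 327 and 293 in the Siglec-F int libraries and 617, 539 and 312 in the naive libraries. Naive library 3, the lowest of its group, was below the highest library of each tumour group. Its fall in Siglec-F high (-1.47 ± 0.51, adjusted p = 0.0492) was -0.86 without Siglec-F high library 1 (adjusted p = 0.0823), and it was at -0.79 ± 0.51 (adjusted p = 0.289) in Siglec-F int. Removal of any 1 library except Siglec-F high library 2 ended this call. Ccne1 (chr7:38097984-38107534), a cyclin that activates Cdk2 at the start of S phase, had 1.1, 87.1 and 56.3 normalized counts in the Siglec-F high libraries, 38.1, 80.5 and 115 in the Siglec-F int libraries and 239.7, 206 and 319.9 in the naive libraries. The near absence in Siglec-F high library 1 set much of its log2 fold change of -3.52 ± 1.13 (adjusted p = 0.0379) in Siglec-F high, which was -1.83 without that library (adjusted p = 0.0124), against -1.81 ± 1.13 (adjusted p = 0.272) in Siglec-F int. Its call was lost without any 1 naive or Siglec-F int library (adjusted p from 0.0502 to 0.0999). Ccne2, the other cyclin E, had 37.3, 8.35 and 31.6 normalized counts in the Siglec-F high libraries, 21.5, 39.6 and 18.7 in the Siglec-F int libraries and 9.17, 2.61 and 15.03 in the naive libraries, and did not pass (adjusted p = 0.175 and 0.155). Reads of Ccne2 cannot be told apart from those of Ints8, which overlaps it on the other strand by 5622 bases and had 742 reads in Siglec-F high, 1054 in Siglec-F int and 179 in naive libraries.

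Of the G2/M genes, Mki67, Top2a and Cenpf rose in both tumour groups, and Cenpe, Nusap1 and Prc1 in Siglec-F high. Mki67 (ENSMUSG00000031004, chr7:135689784-135716361 in GRCm38), which coats mitotic chromosomes and is the antigen of the Ki-67 proliferation stain, had 698, 372 and 542 normalized counts in the Siglec-F high libraries, 685, 494 and 400.1 in the Siglec-F int libraries and 148, 185 and 158 in the naive libraries. All 6 tumour libraries were above all naive libraries. Its log2 fold change was 1.67 ± 0.33 (adjusted p = 0.00508) in Siglec-F high and 1.65 ± 0.33 (adjusted p = 0.00640) in Siglec-F int, and both calls held without any 1 library. Top2a (chr11:98992943-99024189), the topoisomerase that untangles sister chromatids, had 1614, 1333 and 1889 normalized counts in the Siglec-F high libraries, 1621, 1127 and 1355 in the Siglec-F int libraries and 678, 584 and 842 in the naive libraries, also without overlap with naive. It rose by 1.20 ± 0.27 (adjusted p = 0.00950) in Siglec-F high and 0.96 ± 0.27 (adjusted p = 0.0287) in Siglec-F int, and in Siglec-F int the call was lost without naive library 1 or 2 or Siglec-F int library 1 or 3 (0.95, 0.84, 0.83 and 0.96). Cenpf (chr1:189640606-189688086), a kinetochore protein, had 165, 199 and 251 normalized counts in the Siglec-F high libraries, 204, 152 and 187 in the Siglec-F int libraries and 50.5, 49.5 and 101 in the naive libraries, with naive library 3 the highest of its group but below every tumour library. It rose by 1.66 ± 0.38 (adjusted p = 0.0100) in Siglec-F high and 1.49 ± 0.38 (adjusted p = 0.0191) in Siglec-F int, and in Siglec-F int the call was lost without the same 4 libraries (1.33, 1.32, 1.40 and 1.46).

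The kinetochore motor Cenpe (chr3:135212537-135273611) had 179.9, 169 and 241 normalized counts in the Siglec-F high libraries, 139, 121 and 138 in the Siglec-F int libraries and 88.3, 88.6 and 71.0 in the naive libraries, with each tumour library above each naive one. It rose in Siglec-F high, with 1.23 ± 0.32 (adjusted p = 0.0163), and was at 0.68 ± 0.32 (adjusted p = 0.146) in Siglec-F int. The call was lost without naive library 3 (1.13) or Siglec-F high library 3 (1.08). Nusap1 (chr2:119618298-119651244), which bundles spindle microtubules, had 172, 83.5 and 129 normalized counts in the Siglec-F high libraries, 81.1, 80.9 and 123 in the Siglec-F int libraries and 34.4, 46.9 and 64.3 in the naive libraries. No library of a tumour group was as low as a naive one. It rose in Siglec-F high, with 1.37 ± 0.43 (adjusted p = 0.0337), a call kept without any 1 of 3 libraries and lost without any 1 of the other 6, among them Siglec-F high library 1 (1.12). Prc1 (chr7:80294450-80316259), a bundler of the central spindle, had 525, 431 and 380.4 normalized counts in the Siglec-F high libraries, 473, 319 and 350.1 in the Siglec-F int libraries and 268, 193 and 272 in the naive libraries. The groups did not overlap with naive. Its rise in Siglec-F high (0.87 ± 0.30, adjusted p = 0.0462) did not hold in any of the 9 fits without 1 library (0.71 to 0.97, adjusted p from 0.0523 to 0.123). Nusap1 overlaps Oip5, and Prc1 overlaps Rccd1 and 6330403N20Rik, on the other strand.

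Birc5 fell in both tumour groups, Aurkb, Plk1 and Foxm1 in Siglec-F high, and Aurka and Cenpa in Siglec-F int. Birc5 (survivin, chr11:117849251-117855743), the subunit that targets the Aurora B complex, had 131, 389.6 and 352 normalized counts in the Siglec-F high libraries, 270.0, 342 and 366 in the Siglec-F int libraries and 829, 722 and 859.5 in the naive libraries. Naive libraries were all above the others, and the log2 fold change was -1.61 ± 0.40 (adjusted p = 0.0139) in Siglec-F high and -1.31 ± 0.40 (adjusted p = 0.0390) in Siglec-F int, of which the call in Siglec-F int was lost without any 1 Siglec-F int or naive library (-1.18 to -1.40). In Siglec-F high, Birc5 was at -1.11 without library 1, the lowest of that group. Aurkb (chr11:69045647-69051664), the kinase of that complex, had 36.2, 54.9 and 44.4 normalized counts in the Siglec-F high libraries, 47.8, 40.0 and 55.0 in the Siglec-F int libraries and 102, 99.0 and 92.7 in the naive libraries, lower in each tumour library than in any naive one. It fell in Siglec-F high, with -1.12 ± 0.39 (adjusted p = 0.0481), a call kept only without Siglec-F high library 2, and was at -1.04 ± 0.39 (adjusted p = 0.0777) in Siglec-F int. Plk1 (chr7:122159439-122169873), the Polo-like kinase, had 95.4, 217 and 187 normalized counts in the Siglec-F high libraries, 212, 187 and 199.9 in the Siglec-F int libraries and 384, 297 and 404 in the naive libraries. Again the groups did not overlap with naive. It fell in Siglec-F high, with -1.19 ± 0.35 (adjusted p = 0.0285), which was -0.83 without Siglec-F high library 1 and was lost without naive library 1 (-1.14) or 3 (-1.1), and was at -0.84 ± 0.35 (adjusted p = 0.110) in Siglec-F int. Foxm1 (chr6:128362967-128376146), a transcription factor that activates many G2/M genes, had 20.8, 85.3 and 83.6 normalized counts in the Siglec-F high libraries, 63.9, 56.9 and 94.6 in the Siglec-F int libraries and 190.4, 245 and 213 in the naive libraries. No tumour library reached the lowest naive library, and it fell in Siglec-F high, with -1.99 ± 0.53 (adjusted p = 0.0185), or -1.34 without Siglec-F high library 1. The call was lost without naive library 2 or 3 (-1.90 and -2.0), and Siglec-F int stood at -1.60 ± 0.53 (adjusted p = 0.0524).

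Aurka (chr2:172356190-172370535), the kinase of the spindle poles, had 57.0, 89.5 and 144 normalized counts in the Siglec-F high libraries, 62.8, 69.1 and 93.3 in the Siglec-F int libraries and 209, 154 and 259.8 in the naive libraries, with all tumour libraries below the lowest naive one. It fell in Siglec-F int, with -1.44 ± 0.42 (adjusted p = 0.0324), and was at -1.16 ± 0.42 (adjusted p = 0.0563) in Siglec-F high. Cenpa (chr5:30666777-30674830), the histone variant of centromeres, had 910.3, 774 and 752 normalized counts in the Siglec-F high libraries, 599, 681 and 757 in the Siglec-F int libraries and 1115, 1584 and 1240.4 in the naive libraries, without overlap with naive. It fell in Siglec-F int, with -0.94 ± 0.25 (adjusted p = 0.0242), and was at -0.68 ± 0.25 (adjusted p = 0.0618) in Siglec-F high. Both calls were lost without naive library 3 or Siglec-F int library 1 or 3, that of Aurka also without naive library 1 or Siglec-F int library 2, and that of Cenpa also without naive library 2, with log2 fold changes of -1.26 to -1.61 for Aurka and -0.80 to -1.02 for Cenpa.

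Of the 25 G2/M genes, 13 passed in neither comparison. They were Cdk1 and its cyclins Ccnb1, Ccnb2 and Ccna2, the checkpoint kinases Bub1 and Bub1b, the mitotic kinesins Kif11, Kif20a and Kif23, the spindle assembly factor Tpx2, the microtubule regulator Stmn1, and Cdc20 and Ube2c, which act with the anaphase-promoting complex. Their log2 fold changes ran from -1.03 (Ube2c) to 0.87 (Kif20a) in Siglec-F high and from -1.02 (Cdc20) to 0.88 (Kif11) in Siglec-F int. The cyclins lay both ways, with Ccnb1 at 171, 382 and 281 normalized counts in the Siglec-F high libraries, 326, 271 and 404 in the Siglec-F int libraries and 606, 354 and 587 in the naive libraries, and Ccnb2 at 491 ± 224, 299.9 ± 52.6 and 361 ± 89.6 in the same order of groups (SD, n = 3 each). Without a correction for length, the genes Cdk1, Top2a and Stmn1 made up 20.5%, 15% and 13.1% of the G2/M reads in Siglec-F high, and 15.7%, 7.16% and 16.6% in naive. Stmn1 had 951, 1648 and 1326 normalized counts in the Siglec-F high libraries, 1339.9, 1545 and 1334 in the Siglec-F int libraries and 2041, 953 and 1739.9 in the naive libraries. Naive libraries ranged more widely than either tumour group for Stmn1.

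Transcript length and GC content went with the fold changes. Among the G2/M genes, the 6 that rose in Siglec-F high had a median length (longest transcript in GENCODE M21) of 6566 bases and a median GC content of 43.3%, and the 4 that fell had 2767 bases and 53.6%. The rank correlation of log2 fold change with length across the 25 G2/M genes was 0.61 in each comparison with naive, and that with GC content was -0.70 in Siglec-F high and -0.72 in Siglec-F int. Across the 17 S-phase genes these were 0.22 and 0.33 for length and -0.57 and -0.46 for GC content. Across 13639 genes they were 0.26 and 0.27 for length and -0.48 and -0.37 for GC content. Genes share the same libraries and are not independent replicates, so these correlations are descriptive.

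After the smooth dependence of values on GC content and length was taken out of each library, a step added after seeing the data, the S-phase genes still lay lower. In Siglec-F high, 7 of 17 fell (Mcm2, Mcm5, Mcm7, Rrm1, Rrm2, Tk1 and Tyms) and none rose, with a median of -0.89, and in Siglec-F int 4 of 17 fell (Mcm2, Rrm1, Rrm2 and Tyms), with a median of -0.86. Of the 10 S-phase calls as deposited in Siglec-F high, 5 were kept. Those of Ccne1 (-2.69), Cdt1 (-0.33), E2f1 (-0.29), Mcm3 (-0.84) and Mcm4 were lost. In Siglec-F int 3 of 6 were kept, and those of Cdt1 (-1.27), Mcm3 (-0.83) and Mcm7 (-0.77) were lost. On that scale 12.5% of 13639 genes fell and 9.63% rose in Siglec-F high (22.1% in all), and 9.16% fell and 9.93% rose in Siglec-F int (19.1% in all). Mcm2 was at -1.92 (adjusted p = 0.000578) in Siglec-F high and -2.07 (adjusted p = 0.000484) in Siglec-F int. Mcm4 was at 0.91 (adjusted p = 0.114) in Siglec-F high. Of the 6 G2/M genes that rose in Siglec-F high as deposited, only Mki67 passed, at 0.79 (adjusted p = 0.0488) in Siglec-F high and 0.90 (adjusted p = 0.0313) in Siglec-F int, while Top2a was at 0.14 and 0.18, Cenpf at 0.46 and 0.56, and Cenpe at -0.10 in Siglec-F high. The falls of Birc5 and Foxm1 passed in Siglec-F high (-1.77 and -1.45), those of Plk1 (-0.07) and Aurkb (-0.31) did not, and Ccnb1, which did not pass as deposited, fell by 1.42. In Siglec-F int, Birc5, Cenpa and Foxm1 fell (-1.37, -0.95 and -1.33).

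**Figure D4:**
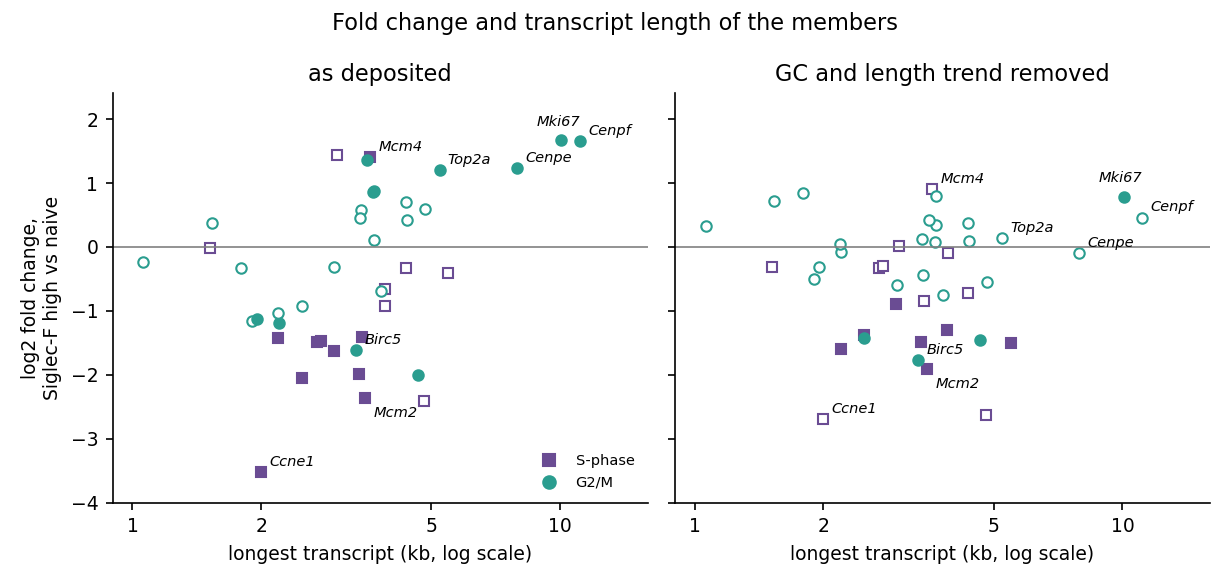
Log2 fold change of Siglec-F high over naive against the length of the longest transcript (kb, log scale) for the 17 S-phase and 25 G2/M genes, as deposited (left) and with the dependence on GC content and length taken out (right). Filled symbols passed the adjusted p threshold of 0.05. The long genes Mki67 and Cenpf are the highest points on the left, with the long genes Cenpe and Top2a and the shorter Ccne2, Mcm4 and Nusap1 also above 1, and of these 7 only Mki67 passes on the right.

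Wider lists of the same machinery, which hold no member, were read beside the members. Over all genes, 31.3% were called in Siglec-F high (14.7% higher, 16.6% lower) and 22.3% in Siglec-F int (12% higher, 10.3% lower). Of 50 other replication genes, 2 were higher and 11 lower in Siglec-F high than in naive (median log2 fold change -0.14), and 1 was higher and 10 lower in Siglec-F int (median -0.37). Uhrf1, which brings the maintenance DNA methyltransferase to replicated DNA, fell by 1.71 and 1.74 on the log2 scale in Siglec-F high and Siglec-F int (adjusted p = 0.00368 and 0.00404). In Siglec-F high, Chaf1b, a subunit of the chromatin assembly factor of the fork, was at -2.65 ± 0.52 (adjusted p = 0.00484) and Mcm10, an initiation factor, at -2.03 ± 0.44 (adjusted p = 0.00827). Rfc4, of the clamp loader, and Pold2, of polymerase delta, were at -1.68 ± 0.33 (adjusted p = 0.00635) and -2.11 ± 0.47 (adjusted p = 0.0103) in Siglec-F int. Both were also lower in Siglec-F high, Rfc4 at -1.13 (adjusted p = 0.0272) and Pold2 at -2.135 (adjusted p = 0.00829). Chaf1b and Mcm10 were also lower in Siglec-F int, at -1.96 (adjusted p = 0.0220) and -1.47 (adjusted p = 0.0373). Higher were Pola1, the catalytic subunit of polymerase alpha, at 2.31 ± 0.51 (adjusted p = 0.00893) in Siglec-F high and 1.84 ± 0.51 (adjusted p = 0.0275) in Siglec-F int, and Dbf4, the activator of the Cdc7 kinase, at 1.46 ± 0.41 (adjusted p = 0.0221) in Siglec-F high. Without naive library 2 the call of Dbf4 was lost. In Siglec-F int the call of Pold2 was lost without Siglec-F int library 3, and that of Pola1 without naive library 1 or 3 or Siglec-F int library 1 or 3. The calls of Chaf1b and Mcm10 in Siglec-F int were kept in 5 and 3 of 9 fits without 1 library, and that of Rfc4 in Siglec-F high in 5. Rfc4 overlaps Eif4a2 on the other strand by 194 bases (1580 reads in Siglec-F high, 3548 in Siglec-F int and 639 in naive libraries).

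Of 48 other G2/M genes, 10 were higher and 6 lower in Siglec-F high (median 0.17), and 6 were higher and 2 lower in Siglec-F int (median 0.01), beside 31.3% and 22.3% of all genes, so that neither count stands out. Anln, a scaffold of the cleavage furrow, had 315, 209 and 252 normalized counts in the Siglec-F high libraries, 247, 128 and 239 in the Siglec-F int libraries and 27.5, 28.7 and 60.1 in the naive libraries. Its libraries did not overlap with naive in either tumour group, and it rose by 2.78 ± 0.43 (adjusted p = 0.00158) in Siglec-F high and 2.41 ± 0.43 (adjusted p = 0.00382) in Siglec-F int. Smc4, a core subunit of condensin, was at 2.42 ± 0.55 (adjusted p = 0.00960) in Siglec-F high and 2.01 ± 0.55 (adjusted p = 0.0252) in Siglec-F int, with 555, 131 and 244 normalized counts in the Siglec-F high libraries, and at 1.88 in Siglec-F high without library 1. Its call in Siglec-F int was lost without naive library 2 or Siglec-F int library 1 or 3. Ncapg, also of condensin, rose in Siglec-F high (2.02, adjusted p = 0.0170) and in Siglec-F int (2.0 ± 0.53, adjusted p = 0.0217). Ckap2, a spindle protein, rose in Siglec-F high (1.79 ± 0.41, adjusted p = 0.0103). Lower in Siglec-F high were Cdca3 (-1.74 ± 0.35, adjusted p = 0.00576), which triggers mitotic entry, Gtse1 (-2.51 ± 0.59, adjusted p = 0.0112), a microtubule-binding protein of G2, and the condensin subunit Ncapd2 (-2.08 ± 0.52, adjusted p = 0.0140). In Siglec-F int, Cdca3 (-1.54 ± 0.35, adjusted p = 0.0116) and the cyclin Ccnf (-1.52 ± 0.48, adjusted p = 0.0432) were lower. Ccnf was also lower in Siglec-F high (-1.88, adjusted p = 0.0150). Without Siglec-F high library 1, Gtse1 was at -1.82, Ncapd2 at -1.37 and Cdca3 at -1.36 in Siglec-F high. In Siglec-F int, the call of Ncapg was lost without naive library 1 or 2 or Siglec-F int library 1 or 3, and that of Ccnf without any 1 of 6 libraries. In Siglec-F high, these calls were lost without Siglec-F high library 3 (Ncapg) and naive library 1 (Ccnf). Reads of Ncapg and of Lcorl, which overlaps it on the other strand by 3366 bases (269 reads in Siglec-F high, 431 in Siglec-F int and 71 in naive libraries), cannot be told apart.

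Among 10 G1 cyclins and kinases, 1 was higher and 5 were lower in Siglec-F high, and 1 was higher and 3 were lower in Siglec-F int. Over all genes, 14.7% were higher and 16.6% lower in Siglec-F high, and 12% higher and 10.3% lower in Siglec-F int. Cdk6 rose and Cdk2 fell in both tumour groups. Cdk6, a partner of D-type cyclins, had 593, 449 and 292 normalized counts in the Siglec-F high libraries, 373, 324 and 457 in the Siglec-F int libraries and 37.9, 49.5 and 49.3 in the naive libraries. It rose by 3.21 ± 0.34 (adjusted p = 0.000311) in Siglec-F high and 3.05 ± 0.34 (adjusted p = 0.000556) in Siglec-F int, with no overlap. Cdk2, the partner of cyclin E, had 161, 326 and 357 normalized counts in the Siglec-F high libraries, 232, 336 and 313 in the Siglec-F int libraries and 3348, 2767 and 2528 in the naive libraries, and fell by 3.42 and 3.30 on the log2 scale in Siglec-F high and Siglec-F int (adjusted p = 0.000268 and 0.000420). The Cdk2 gene overlaps the pigment cell gene Pmel on the other strand by 837 bases (chr10:128704195-128720238 for Pmel in GRCm38), and Pmel had 163 reads in Siglec-F high, 475 in Siglec-F int and 35116 in naive libraries. Reads of Cdk2 and Pmel in the overlap cannot be told apart. Ccnd2, cyclin D2, had 319, 359.8 and 371 normalized counts in the Siglec-F high libraries, 431, 562 and 530.4 in the Siglec-F int libraries and 1338, 1329 and 1189 in the naive libraries. Its log2 fold change was -1.87 ± 0.25 (adjusted p = 0.000763) in Siglec-F high and -1.34 ± 0.25 (adjusted p = 0.00436) in Siglec-F int. Cdk4 fell in Siglec-F high (-1.83 ± 0.55, adjusted p = 0.0288), with 294, 1641 and 1472 normalized counts in its 3 libraries, and was at -1.03 without library 1. The call of Cdk4 was lost without any 1 naive library, and it overlaps Tspan31 on the other strand by 641 bases (386 reads in Siglec-F high, 739 in Siglec-F int and 358 in naive libraries). Cdc25a, the phosphatase that activates Cdk2, fell in Siglec-F int (-1.41 ± 0.45, adjusted p = 0.0467), a call lost without any 1 of 6 libraries. It also fell in Siglec-F high (-1.51, adjusted p = 0.0290), a call lost without naive library 1 or 3 or Siglec-F high library 3.

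Of 23 inhibitors and repressors of the cycle, 6 were higher and 2 lower in Siglec-F high (median 0.42), and 4 were higher and 0 lower in Siglec-F int (median 0.32), again beside 31.3% and 22.3% of all genes. The antiproliferative genes Btg1 and Btg2 and the retinoblastoma gene Rb1 were among those higher in both. Btg1 had 1486, 1039 and 968 normalized counts in the Siglec-F high libraries, 993, 1276 and 1129.8 in the Siglec-F int libraries and 286, 307 and 292 in the naive libraries, so that no tumour library overlapped with naive, and rose by 1.95 ± 0.26 (adjusted p = 0.000849) in Siglec-F high and 1.93 ± 0.26 (adjusted p = 0.00118) in Siglec-F int. Btg2 rose by 1.90 ± 0.30 (adjusted p = 0.00180) in Siglec-F high and 1.55 ± 0.30 (adjusted p = 0.00566) in Siglec-F int. Rb1 rose by 3.12 ± 0.62 (adjusted p = 0.00553) in Siglec-F high and 3.41 ± 0.62 (adjusted p = 0.00432) in Siglec-F int. Its gene overlaps Rcbtb2 by 24171 bases and Lpar6 by 5400 bases on the other strand. In Siglec-F high, Siglec-F int and naive libraries, Rcbtb2 had 586, 1465 and 397 reads and Lpar6 had 239, 649 and 30. Reads of Rb1 and of these genes in the overlaps cannot be told apart. Fzr1, the activator of the anaphase-promoting complex in G1, fell in Siglec-F high (-2.67 ± 0.81, adjusted p = 0.0301), with 32.9, 524 and 331 normalized counts in its 3 libraries, and was at -1.46 without library 1. Removal of any 1 naive library ended that call. Of 13 regulators of proliferation, 3 were higher and 2 lower in Siglec-F high, and 2 were higher and 0 lower in Siglec-F int. Beside these stand 31.3% (14.7% higher, 16.6% lower) and 22.3% (12% higher, 10.3% lower) of all genes. E2f7 (2.35 ± 0.58, adjusted p = 0.0140) and E2f8 (2.62 ± 0.85, adjusted p = 0.0385), repressors of E2F targets, and Lin54 (1.80 ± 0.56, adjusted p = 0.0325), the DNA-binding subunit of MuvB, rose in Siglec-F high. E2f8 (2.61 ± 0.85, adjusted p = 0.0486) and Lin54 (2.1 ± 0.56, adjusted p = 0.0222) rose in Siglec-F int. Reads of E2f8 and of Gm2788, which overlaps it on the other strand by 3639 bases (50 reads in Siglec-F high, 32 in Siglec-F int and 0 in naive libraries), cannot be told apart. The calls of E2f8 were lost without any 1 of 5 libraries in Siglec-F high, library 1 of that group among them (2.35), and any 1 of 7 in Siglec-F int, and those of Lin54 without any 1 of 6 and 5. Lin37 (-2.40 ± 0.49, adjusted p = 0.00616), another MuvB subunit, and Mybl2 (-3.16 ± 1.00, adjusted p = 0.0352), which encodes B-Myb, fell in Siglec-F high, and Mybl2 was at 1.1, 38.8 and 44.4 normalized counts in its libraries. Without library 1, Mybl2 was at -1.71 in Siglec-F high, and its call was lost without any 1 of 5 libraries.

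Genes of the list that overlap another annotated gene number 20 of 42, and the partners with reads that bear on called members are those named beside Mcm7, Nusap1 and Prc1, besides Afmid beside Tk1. Of the sparse partners, 6330403N20Rik beside Prc1 had 0, 6 and 3 reads in Siglec-F high, Siglec-F int and naive, and Afmid had 2, 16 and 8. Processed copies of members named in the table (of Pcna, Tyms, Ccnb1, Ccnb2 and Stmn1) held 0 to 2 reads over all libraries, so that few reads were assigned to them.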

How the data were processed

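RNA of 9 sorted libraries (3 per group, each from 3 to 4 pooled mice, with a purity above 98% and an RNA integrity number above 6.3 per the labels) was sequenced. Per the submitters' processing notes, TopHat2 2.1.0, HTSeq and DESeq2 1.10.0 were used with GRCm38, and the library protocol is given as Cell-seq in the labels. The deposited signal values are counts that the authors normalized by a factor per library and rounded to 2 decimals, called normalized counts here. Whole reads were recovered for 100% of values of up to 2000 reads (tolerance 0.05 read) and set the depth, 2205949 to 12495639 reads per library. Shares of reads carry 95% Wilson intervals, which cover counting error only, as the use of molecular identifiers is not given in the sources used here.

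Of 54670 entries, 63 had names turned into dates (0.219% of the total), 116 repeated another entry exactly and 130 repeated its name and values, and these were left out. Of the 54361 genes left, 13642 with a mean of at least 5 were compared with limma 3.58.1 (R 4.3.3) after a log2 transform with a pseudocount of 1. All 9 libraries entered 1 model, the variance prior followed the mean, and tests were two-sided. The Benjamini-Hochberg adjustment ran over these genes, with a threshold of 0.05, and every adjusted p in the text is limma's unless another tool is named. Log2 fold changes are given ± SE, and this scale understates changes of low values. P-values measure the spread between pools. The members, lists and tests were chosen with earlier results of these data known.

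Values per library were given for called members, at most 12 per phase. From each other list up to 3 called genes per direction and comparison with the smallest adjusted p were named, of which 1 gene is not reported here. Libraries of a group were checked for repeats of 1 library (chi-square per degree of freedom 15.3 to 131, none a repeat). Alternatives were other pseudocounts, filters, scalings, variance priors and groups in the fit, count tests on the recovered reads with edgeR 4.0.16 or DESeq2 1.42.0, the replicate number as a block, and the removal of libraries. Added after seeing the data was the removal of a loess trend (span 0.3) with GC content and transcript length. Scripts were tested on simulated data. Positions are from GENCODE M21 (GRCm38).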

Additional observations from a re-analysis of the deposited data

How the results depend on the processing

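Over 126 fold changes of members (42 genes in 3 comparisons), 1 changed its sign after a call, that of Cenpe in Siglec-F high, at -0.10 (adjusted p = 0.881) with the dependence on GC content and length taken out, against 1.23 as deposited. With it taken out, 4 G2/M genes were called in each comparison with naive, beside 22.1% and 19.1% of all genes. Medians in Siglec-F high and Siglec-F int were then -0.89 and -0.86 for S-phase genes, and 0.081 in Siglec-F high for G2/M genes. With genes kept at any value above 0, 6 G2/M genes were called in Siglec-F high and 2 in Siglec-F int, among 3089 and 2228 of 26995 genes in all. In Siglec-F int, TMM, equal totals and edgeR each called 3 S-phase genes, all lower, and 3 G2/M genes, all higher. Over all 13642 genes they called 3031, 2904 and 2875. The S-phase medians were -0.98, -0.94 and -0.98, and TMM and equal totals gave G2/M medians of 0.13 and 0.17. edgeR gave a G2/M median of 0.57 in Siglec-F high. DESeq2 called 6 genes between the tumour groups. A fit of only the groups compared called 2509 genes and 5 G2/M genes in Siglec-F high, and 4808 genes, 11 S-phase and 10 G2/M genes in Siglec-F int. Without the variance trend, 3 G2/M genes were called in Siglec-F int, among 2604 of 13642 genes in all. Without library 1 of Siglec-F high and library 2 of Siglec-F int together, medians in Siglec-F high were -1.19 (S-phase) and 0.12 (G2/M), and 4822 genes, 11 S-phase and 11 G2/M genes were called in Siglec-F int. Without mitochondrial reads in the total, S-phase genes summed to 982 RPM in Siglec-F high, 1005 in Siglec-F int and 1958 in naive, and G2/M genes to 2902, 2533 and 2399. The cause of these shifts was not tested.

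Leaving out each library in turn gave 2758 to 5096 genes, 5 to 10 S-phase genes and 5 to 12 G2/M genes called in Siglec-F high against naive, 1401 to 5301, 3 to 11 and 1 to 11 in Siglec-F int against naive, and 0 to 0 for each between the tumour groups. S-phase medians ran from -1.59 to -1.19 in Siglec-F high, from -1.33 to -1.07 in Siglec-F int and from -0.06 to 0.09 between the tumour groups. G2/M medians ran from 0.0019 to 0.50, from -0.19 to 0.01 and from 0.0119 to 0.26. Summed means without each library were 704 to 873 (Siglec-F high), 809.9 to 858 (Siglec-F int) and 1571 to 1683 (naive) for S-phase genes, and 2199 to 2395, 1984 to 2354 and 1821 to 2189.9 for G2/M genes.

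With the replicate number as a block, 10 S-phase and 10 G2/M genes were called in Siglec-F high, 7 and 7 in Siglec-F int and 0 and 0 between the tumour groups, among 4317, 3091 and 0 genes in all. Of 126 member results 32 were called without the block, 34 with it and 31 in both. The numbers share no stated origin. In their deviations from the group means, same-numbered tumour and naive libraries correlated by -0.03 to 0.06. Between the tumour groups, same-numbered libraries correlated by 0.07 to 0.14 and differently numbered ones by -0.16 to -0.01. Whether the numbers pair the libraries of the tumour groups was not tested, and the main fit did not pair them.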

Other observations

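Outside the rule for named genes, and chosen after their values were seen, further genes of the outer kinetochore, which ties chromosomes to the spindle, were higher in Siglec-F high. Ndc80 had 133, 84.7 and 71.6 normalized counts in the Siglec-F high libraries, 65.0, 33.3 and 82.5 in the Siglec-F int libraries and 14.9, 26.1 and 31.7 in the naive libraries, and its log2 fold change in Siglec-F high was 1.96 ± 0.51 (adjusted p = 0.0170). Nuf2, its partner, was at 1.32 ± 0.44 (adjusted p = 0.0415), and Knl1, the scaffold of the kinetochore, at 3.42 ± 0.89 (adjusted p = 0.0172). These calls were lost without naive library 1 (Ndc80), any 1 of 7 libraries (Nuf2) and Siglec-F high library 3 (Knl1). Knl1 was also higher in Siglec-F int (2.86, adjusted p = 0.0424), a call kept in 3 of 9 fits without 1 library. Spc24, a further subunit of the Ndc80 complex, was lower, with 21.9, 51.3 and 64.8 normalized counts in the Siglec-F high libraries, 47.8, 75.0 and 97.4 in the Siglec-F int libraries and 180.1, 141 and 104 in the naive libraries and a log2 fold change of -1.70 ± 0.50 (adjusted p = 0.0267) in Siglec-F high, lost without naive library 1 or 2 and -1.24 without Siglec-F high library 1. Subunits of that complex were therefore called in both directions in the same libraries, as were the condensin genes Smc4 (2.42 ± 0.55, adjusted p = 0.00960) and Ncapd2 (-2.08 ± 0.52, adjusted p = 0.0140). How these calls stand with the dependence on GC content and length taken out is not reported here.

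Chosen in the same way, Gadd45a, a growth arrest and DNA damage gene, was higher in both tumour groups, with 166, 329.9 and 309 normalized counts in the Siglec-F high libraries, 347, 171 and 343 in the Siglec-F int libraries and 67.7, 26.1 and 71.0 in the naive libraries. Its log2 fold change was 2.33 ± 0.49 (adjusted p = 0.00682) in Siglec-F high and 2.42 ± 0.49 (adjusted p = 0.00679) in Siglec-F int, and tumour and naive libraries did not overlap.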
